A study of Homo sapiens with 16 samples.

Results

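The 10 genes described here encode NF-kappaB subunits and proteins that regulate the pathway. NFKB1, NFKB2, RELA and RELB are subunits. NFKBIA, NFKBIE, NFKBIZ, TNFAIP3 and TNIP1 are inhibitors and regulators, and BIRC3 is a ubiquitin ligase of the pathway. All 10 genes were chosen by name and measured, each on a single row, among 20166 gene symbols of a poly-A RNA-seq table. The table covers 16 libraries of RWPE1, an immortalized line of human prostate epithelium. Of these, 6 libraries carried an empty vector (an altered pTRIPZ plasmid), 6 carried a wild-type over-expression construct and 4 were labelled as carrying its T164A mutant. All 3 groups are engineered derivatives of 1 line, and the labels do not say whether they are clones or pools, how long the constructs were expressed, or whether libraries of a group come from separate cultures. P-values therefore measure the spread between these libraries only, which may be technical.

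NF-kappaB is a family of dimeric transcription factors that IkappaB proteins keep in the cytoplasm. Receptors for TNF, IL-1 and microbial products activate the IKK kinases, which mark IkappaB for degradation, and the freed dimers enter the nucleus. A slower branch runs through the kinase NIK (MAP3K14) and turns the NFKB2 precursor p100 into p52, the partner of RELB. Many inhibitors, NFKBIA and TNFAIP3 among them, are themselves NF-kappaB targets, which forms a negative feedback loop. In epithelia the pathway serves inflammatory and barrier responses.

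Promoters are shown first, and their part in the expression differences was not tested. RefSeq promoter windows of GRCh38.p14, each 300 bases from 250 before to 50 after an annotated start, were matched for 8 of the 10 genes. RELB and NFKBIE had no entry. The 10-base kappaB consensus was searched on both strands, and 7 of the 8 genes held at least 1 match in a window. RELA held none. Of all 27305 genes with a window, 13.3% held a match, and 11.3% of all 35116 windows did. The member genes had 14 windows, of which 9 held a match (64.3%), and a gene with several windows has more places for one. Of 24 NF-kappaB target genes with a window, from the list used below, 12 held a match (50%). A match describes letters in a window and is not a measured binding site. The 250 bases before the start are printed 5′ to 3′ in the direction of transcription, with matches in capitals, for NFKBIZ, NFKBIA and TNFAIP3 (which fell in both constructs), TNIP1 (which moved in opposite directions) and BIRC3 (the most variable member). NFKBIZ has a second window with a match and TNIP1 a second window without one, and neither is printed.
NFKBIZ, chr3:101827740-101827989, plus strand: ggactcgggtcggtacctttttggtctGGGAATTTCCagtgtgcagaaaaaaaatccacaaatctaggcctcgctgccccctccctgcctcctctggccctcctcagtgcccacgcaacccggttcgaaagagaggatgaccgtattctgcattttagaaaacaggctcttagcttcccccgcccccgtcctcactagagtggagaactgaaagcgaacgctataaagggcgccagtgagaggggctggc
NFKBIA, chr14:35404750-35404999, minus strand: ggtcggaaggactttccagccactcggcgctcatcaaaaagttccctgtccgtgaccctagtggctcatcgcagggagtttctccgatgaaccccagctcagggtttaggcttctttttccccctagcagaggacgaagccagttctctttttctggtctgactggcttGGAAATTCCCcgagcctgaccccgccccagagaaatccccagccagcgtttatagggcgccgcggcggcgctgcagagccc
TNFAIP3, chr6:137867009-137867258, plus strand: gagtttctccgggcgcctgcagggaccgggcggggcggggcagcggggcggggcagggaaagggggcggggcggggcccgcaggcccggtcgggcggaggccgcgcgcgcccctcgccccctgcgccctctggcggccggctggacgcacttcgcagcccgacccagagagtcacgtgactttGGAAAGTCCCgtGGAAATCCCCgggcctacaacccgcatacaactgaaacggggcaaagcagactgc
TNIP1, chr5:151081035-151081284, minus strand: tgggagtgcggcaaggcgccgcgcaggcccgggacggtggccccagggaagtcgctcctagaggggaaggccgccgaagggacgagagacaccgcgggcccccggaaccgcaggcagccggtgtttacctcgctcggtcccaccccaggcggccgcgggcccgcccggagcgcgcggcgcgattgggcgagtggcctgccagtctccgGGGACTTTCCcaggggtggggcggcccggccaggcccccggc
BIRC3, chr11:102317234-102317483, plus strand: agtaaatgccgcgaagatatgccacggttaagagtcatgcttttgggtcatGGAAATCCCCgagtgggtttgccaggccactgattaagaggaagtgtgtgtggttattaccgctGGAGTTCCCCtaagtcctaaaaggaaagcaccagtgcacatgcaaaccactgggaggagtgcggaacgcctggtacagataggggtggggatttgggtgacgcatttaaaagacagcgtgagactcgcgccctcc

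The matches in these windows lay at different positions. Most of their letters were set by the search, because the consensus was GGGRNNYYCC (R is A or G, Y is C or T, N is any base). NFKBIZ and NFKBIA carried the same 10 bases, GGGAATTTCC, at positions -223 to -214 and, on the opposite strand, at -81 to -72, counted back from the base before the start. TNFAIP3 carried GGGACTTTCC at -67 to -58 and GGGGATTTCC at -55 to -46, both on the opposite strand. TNIP1 carried the first of these sequences, GGGACTTTCC, at -42 to -33 on the printed strand, and BIRC3 shared GGGGATTTCC with TNFAIP3, at -199 to -190 on the opposite strand, with GGGGAACTCC at -135 to -126 on that strand as well. NFKB1 and NFKB2 also held matches, and members with a match included some that fell and 1, TNIP1, that rose in T164A.

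Expression is the log2 value deposited by the authors, summarised per group by its mean ± SD. Differences are on that log2 scale, with the standard error (SE) and Benjamini-Hochberg adjusted p of 1 limma fit over all 20166 symbols. A gene was called at an adjusted p below 0.05. Depth, estimated from the spacing of the values, was 12300000 to 19200000 reads per library, and 3 reads correspond to 2.30 on this scale. No member fell below that floor in any library. Values are not corrected for gene length, so levels are compared between groups and not between genes.

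Cell identity moved with the groups and is given before the results. All 10 basal epithelial markers (KRT5, KRT14, TP63 and others) had means above the floor in all 3 groups, with log2 summed levels of 17.86 to 18.11 in vector, 17.19 to 17.66 in wild type and 16.83 to 17.03 in the libraries labelled T164A. Luminal prostate markers, 10 genes, summed to medians of 8.88, 16.47 and 10.59 in the same order, with wild type at 15.70 to 16.75 and T164A at 10.58 to 10.66, with HPN below the floor in every vector library and KLK2, KLK3 and HPN in every library labelled T164A. IRS4 was below the floor in all vector and wild-type libraries and at 13.63 ± 0.04 (n = 4) in those labelled T164A, and VIM was at 7.54 ± 0.35 (n = 6), 7.44 ± 0.16 (n = 6) and 12.33 ± 0.04 (n = 4). The 7 leukocyte markers summed to 9.34 to 9.87, 8.71 to 8.86 and 8.15 to 8.67. CD3E and LYZ were below the floor in every library of every group, while CD68, which is not restricted to leukocytes, was at 9.31 ± 0.20 in vector (n = 6). Fibroblast markers (7) summed to 10.55 to 11.09, 9.97 to 10.47 and 9.32 to 9.75, a sum carried by COL1A1 (means 10.85, 10.23 and 9.24). In T164A against vector 3 of the 7 were higher and 2 lower. COL3A1 and LUM, below the floor in every vector library, were at 6.75 and 4.83 in T164A. PDGFRB, also below the floor in every vector library, was at 3.48 in T164A and at 3.58 in wild type. The 4 endothelial markers measured (CDH5 below the floor in every library) summed to 4.03 to 4.67, 6.08 to 7.26 and 3.92 to 5.06. The wild-type sum was carried by VWF (means 3.62, 6.65 and 2.34), with CDH5, KDR and TEK below the floor in every wild-type library. In T164A against vector, KDR was called higher (3.93 against 1.47) and VWF lower. In bulk RNA, fewer cells of a type and less RNA per cell cannot be told apart, and the part of these shifts in the NF-kappaB results was not tested.

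**Figure D1:**
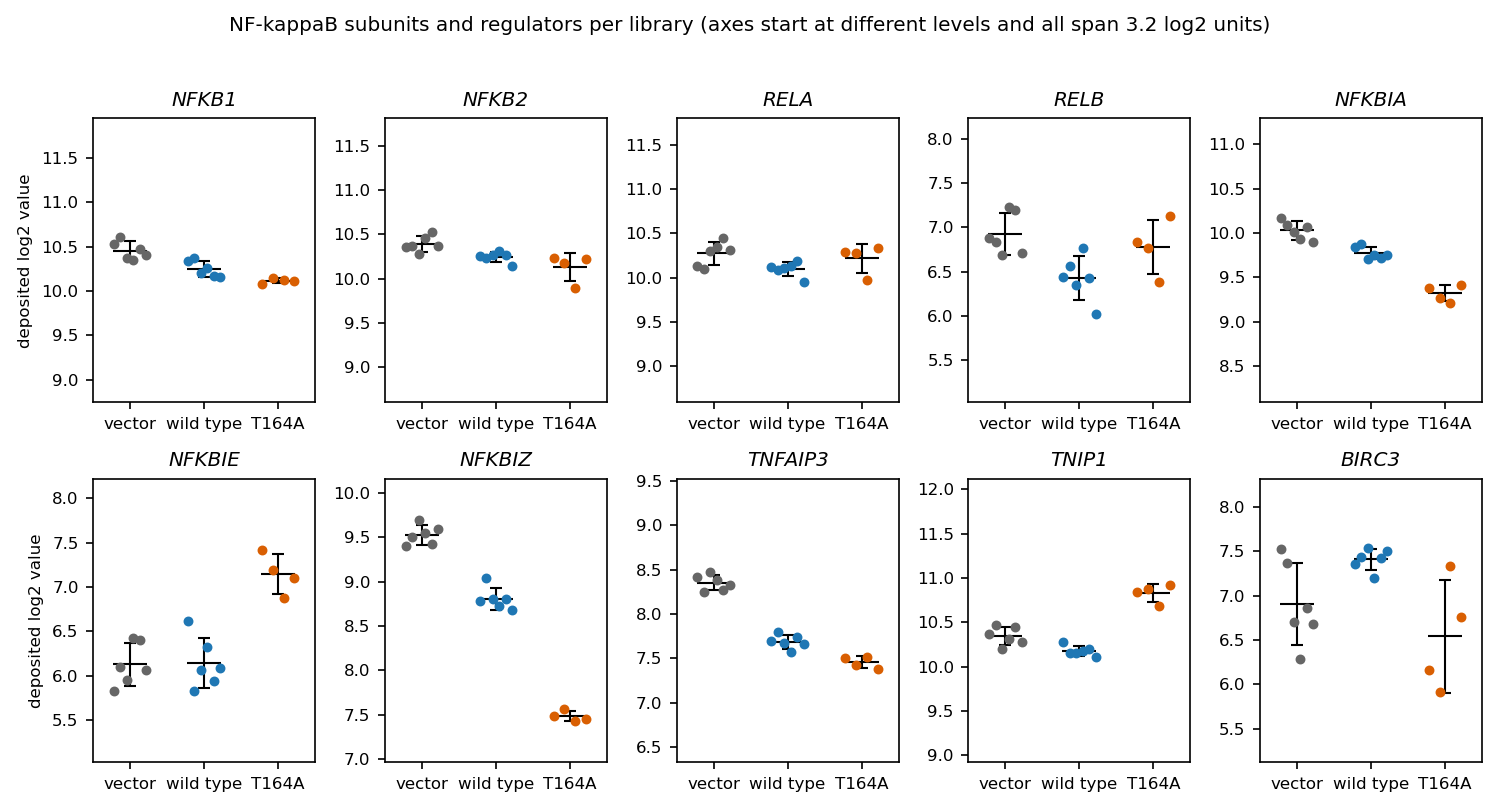
Deposited log2 value (y axis) of each NF-kappaB gene in each library (points) by group (x axis), with the group mean and SD as black bars; every panel spans the same number of log2 units. NFKBIZ, TNFAIP3 and NFKBIA step down from vector to wild type to T164A, NFKBIE and TNIP1 are highest in T164A, and BIRC3 spreads widely in vector and T164A.

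The first comparison asks how the subunits and regulators differed between wild-type and vector libraries. Of the 10 genes, 7 were lower and 1 was higher. Across all genes, 24.5% were called lower and 21% higher. The falls were modest, and the largest were in 2 feedback regulators, NFKBIZ and TNFAIP3, which were 1.65-fold and 1.59-fold lower. The groups did not overlap for NFKBIZ, TNFAIP3 and NFKBIA (3 of 10 genes, all lower), against 14.8% of all genes not overlapping and lower and 14.6% not overlapping and higher. The median difference of the 10 genes was -0.19, beside -0.049 over all genes and -0.073 over the 11167 genes averaging at least 6. All 10 genes averaged at least 6, while the shares over all genes here and below also count genes of lower level. Of the 10 basal markers, 9 were lower, with a median of -0.53. With the libraries of a group that lay close in profile averaged into 1, or with a minimum fold of 1.2 as the null, only NFKBIZ and TNFAIP3 stayed called lower (2 of 10), and BIRC3 was no longer called higher.

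The second comparison sets the libraries labelled T164A against vector, where 5 of the 10 genes were lower and 2 higher. Called lower were 27.2% of all genes, and 37.1% were called higher. NFKBIZ was 4.13-fold lower, TNFAIP3 1.87-fold and NFKBIA 1.63-fold, while NFKBIE was 2.03-fold higher and TNIP1 was 0.48 higher on the log2 scale. All 7 called genes had groups that did not overlap, 5 lower (22.4% of all genes) and 2 higher (33.1%). The median difference was -0.30, beside 0.11 over all genes, and 7 of 10 basal markers were lower with a median of -1.44. Of the genes called in this comparison, 57.7% were higher, or 47.2% under quantile normalization. With a minimum fold of 1.2, 3 of the 10 were lower (NFKB1 and NFKB2 were lost). Both comparisons share the 6 vector libraries.

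The third comparison, wild type minus T164A, sets the construct groups against each other. NFKBIZ, NFKBIA, TNFAIP3 and BIRC3 were higher in wild type (4 of 10; 26.7% of all genes) and NFKBIE and TNIP1 lower (2 of 10; 35.1%). The groups did not overlap for NFKBIZ, NFKBIA, TNFAIP3 and also NFKB1 on the higher side (4 of 10, beside 21.2% of all genes). They did not overlap for NFKBIE and TNIP1 on the lower side (2 of 10, beside 31.2%). For NFKB1 the nearest libraries were almost level, at 10.1548 in wild type and 10.1532 in T164A. Of the 4 subunits 0 were called between the constructs, while without T164A replicate 93 RELA (-0.21, adjusted p = 0.0117) and RELB (-0.48, adjusted p = 0.0102) were lower in wild type. With close libraries averaged, NFKBIZ and NFKBIA were the 2 still called higher. Of the basal markers 7 of 10 were higher in wild type than in T164A, with a median of 0.86, and their part in the result was not tested.

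**Figure D2:**
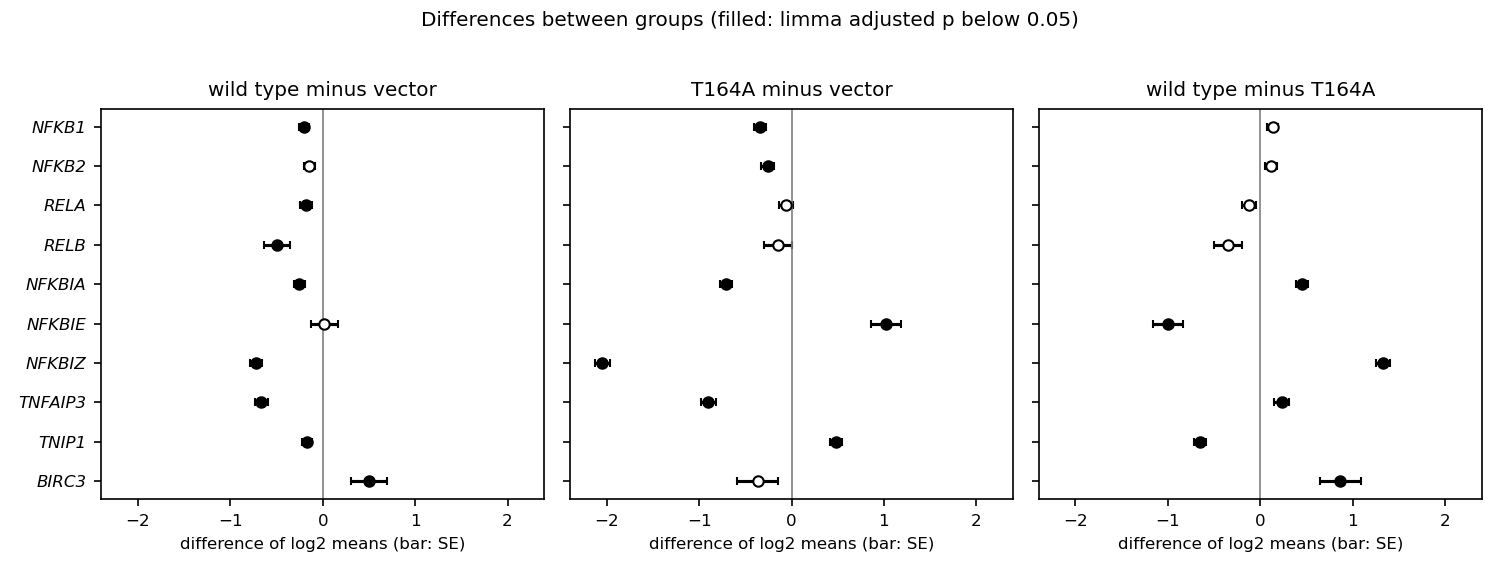
Difference of group means in log2 units (x axis) with its SE (bars) for each gene (y axis) in the 3 comparisons; filled points have a limma adjusted p below 0.05. Differences range from -2.05 (T164A minus vector) to 1.32 (wild type minus T164A), both for NFKBIZ, and no subunit point is filled in the third panel.

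Among the subunits, NFKB1, whose p105 product is processed to p50, ran from 10.35 through a median of 10.44 to 10.61 in vector and from 10.15 through 10.23 to 10.38 in wild type. The libraries labelled T164A were at 10.08, 10.15, 10.12 and 10.11. Every T164A library lay below every vector library, while vector and wild type overlapped at their edges. Between the constructs the highest T164A library (10.1532) lay only just below the lowest wild-type library (10.1548). NFKB1 differed from vector by -0.21 in wild type (SE 0.06, adjusted p = 0.00309) and by -0.34 in T164A (SE 0.06, adjusted p = 2.55e-05). Wild type minus T164A was 0.13 (SE 0.06, adjusted p = 0.0651), or 0.28 under quantile normalization (adjusted p = 0.000138), and also passed the threshold without wild-type replicate 18 (adjusted p = 0.0405).

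NFKB2, the p100 precursor of the NIK branch, averaged 10.39 ± 0.09 (n = 6) in the vector libraries, against 10.25 ± 0.05 (n = 6) with wild type and 10.13 ± 0.16 (n = 4) with T164A. In T164A, 3 libraries lay at 10.18 to 10.24 and replicate 93 at 9.89, all below the lowest vector library at 10.28. The difference from vector was -0.26 in T164A (SE 0.07, adjusted p = 0.00124). In wild type it was -0.14 (SE 0.06, adjusted p = 0.0508), which missed the threshold. The difference passed it without T164A replicate 93 (adjusted p = 0.0125) or vector replicate 3 (adjusted p = 0.0319). It also passed with only the 2 groups compared (adjusted p = 0.0221) and with array weights (adjusted p = 0.0295), and not under quantile normalization (-0.094, adjusted p = 0.218). Between the constructs it was 0.12 (SE 0.07, adjusted p = 0.14), or 0.26 under quantile normalization (adjusted p = 0.00166).

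RELA encodes p65, the main transactivating subunit. It averaged 10.27 ± 0.13 (n = 6) in the vector libraries, against 10.10 ± 0.08 (n = 6) with wild type and 10.22 ± 0.17 (n = 4) with T164A, and the 3 groups overlapped. Wild type minus vector was -0.18 (SE 0.07, adjusted p = 0.0316), a call lost without vector replicate 3, 4, 5 or 6 or wild-type replicate 18 (adjusted p = 0.0545 to 0.0907) and under quantile normalization (adjusted p = 0.105). T164A differed from vector by -0.056 (SE 0.08, adjusted p = 0.553), with replicate 93 at 9.97 and the other 3 libraries at 10.28 to 10.33.

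RELB, the partner of p52, had the largest difference between wild type and vector among the 4 member subunits. Its vector libraries ran from 6.68 through a median of 6.86 to 7.23 and its wild-type libraries from 6.02 through 6.43 to 6.77, with an overlap at wild-type replicate 16. The T164A libraries were at 6.83, 6.76, 6.39 and 7.12, 3 of them inside the vector range and 2, replicates 92 and 93, inside the wild-type range. RELB was 1.41-fold lower in wild type than in vector (-0.50, SE 0.14, adjusted p = 0.00462), a difference that grew to -0.75 under quantile normalization. The call was lost with close libraries averaged (-0.49, adjusted p = 0.103) and with a minimum fold of 1.2 (adjusted p = 0.197). T164A differed from vector by -0.15 (SE 0.16, adjusted p = 0.441), and quantile normalization turned that into a called fall of -0.68 (adjusted p = 0.000344).

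REL, the remaining subunit and not among the 10, fell in both constructs, by -0.56 in wild type (SE 0.14, adjusted p = 0.0016) and -0.43 in T164A (SE 0.16, adjusted p = 0.0198). The T164A call was lost without T164A replicate 94 (-0.31, adjusted p = 0.109) and with close libraries averaged (-0.27, adjusted p = 0.208), which also ended the wild-type call (-0.35, adjusted p = 0.196). The difference between the constructs was -0.14 (SE 0.16, adjusted p = 0.474).

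The IkappaB proteins did not move as a group. NFKBIA, which encodes IkappaBalpha, the classical cytoplasmic inhibitor, ran from 9.90 through a median of 10.04 to 10.17 in vector and from 9.71 through 9.75 to 9.88 in wild type. The T164A libraries were at 9.39, 9.27, 9.22 and 9.42. The 3 groups formed separate steps without overlap. NFKBIA differed from vector by -0.25 in wild type (SE 0.06, adjusted p = 0.000683) and by -0.71 in T164A (SE 0.06, adjusted p = 2.81e-10). Wild type exceeded T164A by 0.45 (SE 0.06, adjusted p = 7.86e-07).

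NFKBIZ encodes IkappaBzeta, a nuclear IkappaB family protein that acts as a cofactor for a subset of NF-kappaB targets. It had the largest changes of the 10 genes. Vector libraries ran from 9.40 through a median of 9.52 to 9.70, and wild-type libraries from 8.68 through 8.79 to 9.04. The T164A libraries were at 7.48, 7.57, 7.43 and 7.45, which is more than 1 log2 unit below the lowest wild-type library. The difference from vector was -0.72 in wild type (SE 0.07, adjusted p = 2.87e-09) and -2.05 in T164A (SE 0.08, adjusted p = 5.87e-18). Between the constructs it was 1.32 (SE 0.08, adjusted p = 5.04e-14).

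NFKBIE, which encodes IkappaBepsilon, behaved differently from NFKBIA. It spanned 5.82 to 6.42 in vector (median 6.08) and 5.83 to 6.61 in wild type (median 6.08), so these groups lay on top of each other. The T164A libraries were at 7.42, 7.19, 6.88 and 7.10, all above the highest library of both other groups. NFKBIE rose by 1.02 in T164A over vector (SE 0.16, adjusted p = 3.49e-06), or by 0.47 under quantile normalization (adjusted p = 0.0104). Wild type minus vector was 0.017 (SE 0.14, adjusted p = 0.943), a value that quantile normalization turned to -0.29 (adjusted p = 0.089).

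Set against each other inside each library, the 2 IkappaB transcripts also shifted. NFKBIE minus NFKBIA averaged -3.90 ± 0.30 (n = 6) in the vector libraries, -3.63 ± 0.28 (n = 6) with wild type and -2.18 ± 0.18 (n = 4) with T164A. The T164A libraries, at -2.34 to -1.96, did not overlap with the others, at -4.35 to -3.23. NFKBIA minus RELA averaged -0.24 ± 0.21 (n = 6) in the vector libraries, -0.32 ± 0.11 (n = 6) with wild type and -0.90 ± 0.10 (n = 4) with T164A, whose libraries lay below all others. These pairs, and that of TNIP1 with TNFAIP3, were chosen after values were seen and were not tested.

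TNFAIP3 encodes A20, a ubiquitin-editing enzyme that shuts off signalling upstream of IKK, and TNIP1 encodes ABIN-1, which binds A20 and ubiquitin chains. TNFAIP3 ran from 8.24 through a median of 8.36 to 8.48 in vector and from 7.57 through 7.68 to 7.80 in wild type. The T164A libraries were at 7.50, 7.43, 7.51 and 7.37. TNFAIP3 differed from vector by -0.67 in wild type (SE 0.07, adjusted p = 2.21e-08) and by -0.90 in T164A (SE 0.08, adjusted p = 1.53e-10). The groups of the constructs lay close together without overlap, 0.23 apart (SE 0.08, adjusted p = 0.0128). Quantile normalization widened that gap to 0.47, and a minimum fold of 1.2 (adjusted p = 0.844) or averaging close libraries (adjusted p = 0.19) ended the call.

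TNIP1 parted from TNFAIP3 in T164A. It averaged 10.35 ± 0.10 (n = 6) in vector and 10.18 ± 0.06 (n = 6) in wild type, and the T164A libraries were at 10.84, 10.88, 10.68 and 10.92, above every other library. TNIP1 rose by 0.48 in T164A over vector (SE 0.06, adjusted p = 1.38e-07). In wild type it differed from vector by -0.17 (SE 0.06, adjusted p = 0.0155), a call lost under quantile normalization (-0.12, adjusted p = 0.0683). Inside each library, TNIP1 minus TNFAIP3 averaged 1.99 ± 0.18 (n = 6) in the vector libraries, 2.49 ± 0.09 (n = 6) with wild type and 3.38 ± 0.16 (n = 4) with T164A, with no overlap among the ranges of 1.73 to 2.23, 2.36 to 2.61 and 3.17 to 3.55.

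BIRC3 encodes cIAP2, a ubiquitin ligase that helps signalling from TNF receptors, restrains NIK and is itself an NF-kappaB target. It was the member with the widest spread. Vector replicates 1 and 2 were at 7.52 and 7.37 and the other 4 vector libraries at 6.29 to 6.87. The wild-type libraries were tight, at 7.20 to 7.53 with a median of 7.43. The T164A libraries were at 6.17, 5.91, 7.33 and 6.76, so replicate 93 reached the wild-type range and the other 3 did not. Wild type exceeded vector by 0.50 (SE 0.20, adjusted p = 0.0385), and wild type exceeded T164A by 0.87 (SE 0.22, adjusted p = 0.00116), or by 0.62 with close libraries averaged (adjusted p = 0.0825). The first call was lost without vector replicate 3, 4, 5 or 6 and without wild-type replicate 13, 14, 15, 17 or 18 (adjusted p = 0.0524 to 0.121), and its value fell to 0.27 under quantile normalization (adjusted p = 0.297). T164A differed from vector by -0.37 (SE 0.22, adjusted p = 0.153), and without T164A replicate 93 by -0.63 (adjusted p = 0.00893), without vector replicate 4 by -0.49 (adjusted p = 0.0492) and under quantile normalization by -0.91 (adjusted p = 0.000931).

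**Figure D3:**
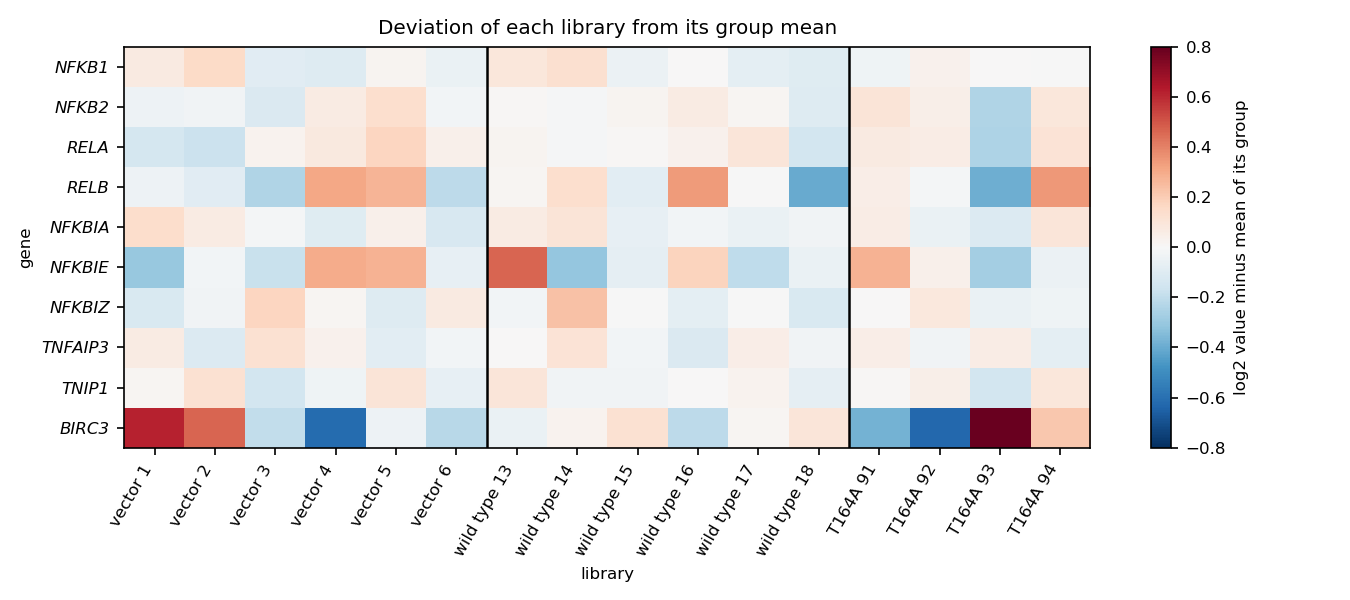
Log2 value of each gene (y axis) minus the mean of its group, by library (x axis), with lines between the groups. BIRC3 has the deepest colours, from -0.63 in T164A replicate 92 to 0.79 in T164A replicate 93, and NFKB2, RELA and RELB are low together in T164A replicate 93 and wild-type replicate 18.

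Within groups, some members varied together from library to library. With group means removed, Pearson's r over the 16 libraries was 0.84 for NFKB2 and RELB (Spearman's rho 0.84), 0.81 for NFKB2 and RELA (rho 0.81) and 0.68 for RELA and RELB (rho 0.67). BIRC3 ran against RELA (r = -0.71, rho -0.57). NFKBIZ and TNFAIP3, the 2 members with the largest falls from vector in both constructs, had an r of 0.54 (rho 0.45). NFKBIA had an r of 0.01 with TNFAIP3 (rho 0.06). These points share libraries, their depth and their preparation, the libraries of a group are not equally far apart, and T164A replicate 93 is low in NFKB2, RELA and RELB at once, so the values only describe these 16 libraries.

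When 11167 genes averaging at least 6 were searched, the most alike in the same measure was GNPTG for RELA (r = 0.98, rho 0.95), WDR24 for NFKB2 (r = 0.96, rho 0.96), TBL3 and RALY for TNIP1 (r = 0.94 for both) and SPATS2L for NFKB1 (r = 0.93, rho 0.93). PIK3R1 was the most alike to BIRC3 (r = 0.92, rho 0.92), UBE2L6 to NFKBIA (r = 0.90, rho 0.90) and MAST2 to RELB (r = 0.91, rho 0.88). MAP7D2 was the most alike to NFKBIZ (r = 0.89, rho 0.79), KIAA0922 to TNFAIP3 (r = 0.88, rho 0.86) and AAAS to NFKBIE (r = 0.84, rho 0.81). No member had another gene of the pathway lists as 1 of its 2 most alike genes. Each r was picked as the highest among 11167 genes, so high values come partly from the search, and none was tested. RELA and NFKB2 lay at -0.25 and -0.24 from their group means in T164A replicate 93, and the part of that library in their r was not tested.

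The wider pathway was read from 4 gene lists and REL, 89 genes in all, each with a value. In wild type, 45 of the 89 were lower and 8 higher than in vector, and in T164A 51 were lower and 18 higher. Median differences were -0.26 and -0.51, beside -0.049 and 0.11 over all genes. Between the constructs, 38 were higher in wild type and 21 lower. Over all genes, 24.5% were lower and 21% higher in wild type, 27.2% lower and 37.1% higher in T164A, and 26.7% higher and 35.1% lower in wild type than in T164A. CXCL8 and OTULIN were read under their older symbols, IL8 and FAM105B.

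Kinases and adaptors, which carry the signal from receptors to IKK, had 16 of 27 lower and 4 higher in wild type, and 17 lower and 7 higher in T164A (all genes: 24.5% and 21%, then 27.2% and 37.1%). The paracaspase MALT1 was 0.98 higher in wild type than in vector (SE 0.08, adjusted p = 1.1e-10) and 1.29 higher than in T164A (SE 0.09, adjusted p = 9.48e-13). The adaptor TRAF1, itself an NF-kappaB target, fell by 0.60 in wild type (SE 0.08, adjusted p = 5.2e-07) and the kinase IKBKE by 0.61 (SE 0.09, adjusted p = 1.6e-06). In T164A, RBCK1, a subunit of the linear ubiquitin ligase, fell by 1.77 (SE 0.09, adjusted p = 2.42e-15). The IL-1 receptor kinase IRAK1 rose by 1.34 (SE 0.07, adjusted p = 5.2e-15) and TAB1, a partner of the kinase TAK1, by 1.66 (SE 0.10, adjusted p = 3.24e-14). MYD88, the adaptor of IL-1 and Toll-like receptors, was 1.25 higher in wild type than in T164A (SE 0.07, adjusted p = 5.25e-14).

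Receptors had 9 of 15 lower and 3 higher in wild type, and 11 lower and 1 higher in T164A, beside the same 24.5% and 21%, and 27.2% and 37.1%, of all genes. The IL-1 receptor IL1R1 moved in opposite directions, by 0.80 in wild type (SE 0.11, adjusted p = 1.22e-06) and -1.90 in T164A (SE 0.12, adjusted p = 3.41e-13), and the constructs differed by 2.70 (SE 0.12, adjusted p = 4.63e-16). CD40 fell by 0.72 in wild type (SE 0.07, adjusted p = 1.01e-08), and TNFRSF1A, the main TNF receptor, by 0.45 (SE 0.06, adjusted p = 1.53e-06). In T164A, TLR3, which senses double-stranded RNA, fell by 2.66 (SE 0.13, adjusted p = 1.04e-15), and TNFRSF11A, the receptor RANK, rose by 2.93 (SE 0.18, adjusted p = 1.8e-13). LTBR, the lymphotoxin receptor that feeds the NIK branch, was 1.12 higher in wild type than in T164A (SE 0.07, adjusted p = 1.86e-13).

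Other inhibitors had 6 of 16 lower and 1 higher in wild type, and 8 lower and 4 higher in T164A. The shares over all genes were 24.5% lower and 21% higher, and 27.2% lower and 37.1% higher. The RNase ZC3H12A, which destroys inflammatory transcripts, fell by 1.41 in T164A (SE 0.07, adjusted p = 4.95e-15) and BCL3, a nuclear IkappaB protein, by 1.35 (SE 0.13, adjusted p = 9.31e-10). BCL3 was also lower in wild type (-0.49, SE 0.12, adjusted p = 0.00111), as were ITCH (-0.33, adjusted p = 0.000229) and TRAFD1 (-0.26, adjusted p = 0.000181). These 3 calls were lost with close libraries averaged (adjusted p = 0.0622, 0.217 and 0.0892). The A20 partners RNF11 and TAX1BP1 were 0.79 and 0.49 higher in wild type than in T164A (SE 0.06 and 0.07, adjusted p = 3e-11 and 3.83e-07).

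Target genes, whose transcription NF-kappaB is known to drive, had 13 of 30 lower and 0 higher in wild type, and 14 lower and 6 higher in T164A, where all genes gave 24.5% lower and 21% higher, and 27.2% lower and 37.1% higher. In 7 and 6 of the 30, both means lay below the floor. The protease gene PLAU fell by 0.81 in wild type (SE 0.07, adjusted p = 5.62e-10), the cytokine IL1B by 1.04 (SE 0.10, adjusted p = 3.02e-09) and the early response gene IER3 by 0.69 (SE 0.08, adjusted p = 7.75e-08), the last being 1 of several rows with its symbol. In T164A, LCN2, an iron-scavenging defence protein, fell by 6.12 (SE 0.22, adjusted p = 3.11e-18), IL1A by 2.21 (SE 0.10, adjusted p = 3.55e-16) and TNFAIP2 by 1.84 (SE 0.08, adjusted p = 9.56e-17). LCN2, IL1A and TNFAIP2 were also higher in wild type than in T164A, LCN2 by 5.12 and TNFAIP2 by 1.30. The 6 target genes higher in T164A, named after their values were seen, were CXCL1, TNF, LTB, SOD2, MMP9 and CD83. SOD2 rose by 0.80 (SE 0.07, adjusted p = 1.4e-10). TNF had both means below the floor and LTB its vector mean (2.13), and both symbols were on several rows. CXCL1 averaged 2.32 in vector, where 3 of 6 libraries lay below the floor.

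**Figure D4:**
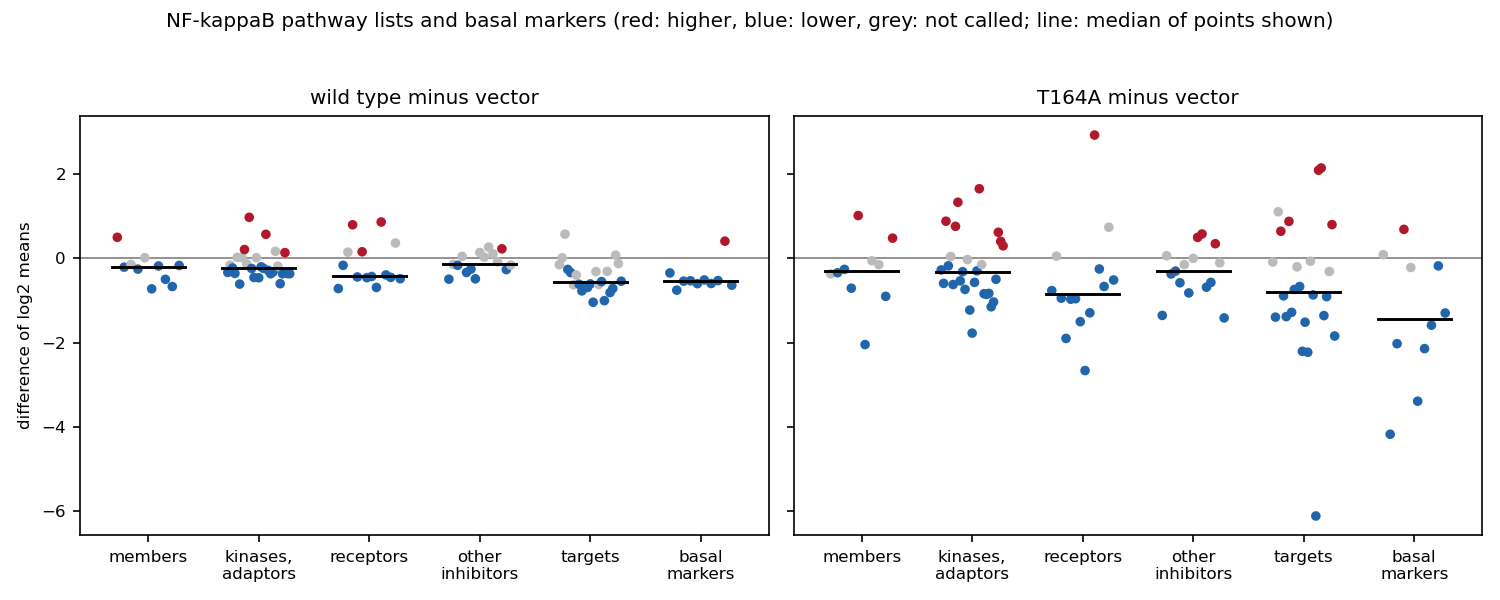
Difference from vector in log2 units (y axis) of each gene in the member set, the pathway lists and the basal markers (x axis), for wild type (left) and T164A (right); red and blue points are called higher and lower, grey points are not called, lines are medians, and genes with both means below the floor are left out. In wild type no target gene is red, and in T164A every list holds points on both sides of 0, down to LCN2 at -6.12.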

How the data were processed

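Poly-A RNA of 16 libraries was prepared with a TruSeq kit, per the labels' protocols. GRCh37 and the tools DESeq, Cufflinks 2.0.2, TopHat2 2.0.4 and CASAVA 1.8.2 appear, with no role or order, in the submitters' processing notes. The authors deposited 1 table of log2 values (21594 rows). The transformation behind them is unknown here. Above 11.5, 2 raised to the log2 value minus 1.89 falls on equal steps in every library (100% within 0.05 of a step), the form of scaled read counts, and this gave the depth and the floor of 3 reads (counting error only). Between 10 and 10.5 only 8.29% to 11.4% of values did, so read counts could not be rebuilt and a count test was left out. For 304 symbols on 1732 rows the row with the highest mean was kept.

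All libraries entered 1 limma fit (limma 3.58.1, R 4.3.3, variance trend), two-sided, adjusted over 20166 symbols at 0.05, after a test on simulated data. Within groups, chi-square per degree of freedom over 547 genes was 4.34 to 152, so no library was counted as a copy of another. Libraries were grouped by title, and the labels give no batch. The members, lists and alternatives were chosen with earlier results of these data known. Named were all members, up to 3 called genes per list and comparison with the smallest p, no overlap and at least 1 group with every library above the floor, and the 2 genes most alike to each member. Older symbols were matched through RefSeq synonyms, and PECAM1 had no match. List genes on chromosome 8 were counted and not named. The gene of the constructs and its level are not reported here. Promoters come from RefSeq (GRCh38.p14), and their coordinates are not those of the files' build.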

Additional observations from a re-analysis of the deposited data

Results flagged for a closer look

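For each of the 10 genes, the highest and lowest library of each group were compared with the rest (30 groups, of which chance singles out about 1 in 20). Dixon's test singled out 3 values. T164A replicate 93 was low in NFKB2, at 9.89, where its gap to the next library was 0.8294 of the range of the group, just above Dixon's critical value, and in RELA, at 9.97, with a gap of 0.86 of the range. Wild-type replicate 14 was high in NFKBIZ, at 9.04, with a gap of 0.66 of the range. The same 2 libraries were the farthest from the others of their groups in the chi-square over 547 genes, at 92.4 to 104 for T164A replicate 93 and 91 to 152 for wild-type replicate 14. Their part in these values was not tested. Without both libraries, NFKBIZ, NFKBIA and TNFAIP3 were still called lower in wild type and in T164A than in vector.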

How the results depend on the processing

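Every member difference was recomputed under 24 alternatives, and 11 of 30 kept their direction and side of the threshold under all of them, among them both differences of NFKBIZ and TNFAIP3 from vector and, in T164A, those of NFKBIA, NFKBIE and TNIP1. The largest adjusted p of NFKBIZ over them was 0.00288 in wild type and 4.54e-11 in T164A. Of 39 list gene results, 33 did so. The 1 member higher in wild type than in vector (BIRC3) became 0 under quantile normalization, without a variance trend, with a minimum fold of 1.2 and with close libraries averaged, and 0 to 1 when 1 library was left out. The 7 members lower in wild type became 2 with a minimum fold of 1.2 and 2 with close libraries averaged. They became 5 under quantile normalization and 8 with array weights or with only the 2 groups compared. The 5 lower in T164A became 3 with a minimum fold of 1.2. Of wild type against T164A, the 4 higher became 2 with close libraries averaged, and the 2 lower became 4 with array weights and 4 without wild-type replicate 14 and T164A replicate 93 together, or 2 to 4 with 1 library left out (4 without T164A replicate 93).

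The 4 reversed differences were not called before the change either. NFKBIE in wild type minus vector was -0.29 under quantile normalization and -0.15 with close libraries averaged, and with 1 library left out it ranged from -0.076 to 0.080, below 0 without vector replicate 1 or 3 and wild-type replicate 13 or 16. RELA, T164A minus vector, was 0.00095 with array weights and 0.027 without T164A replicate 93 and wild-type replicate 14 together. With 1 library left out it ranged from -0.092 to 0.027, the highest without T164A replicate 93. Under quantile normalization, wild type minus T164A was 0.013 for RELA and 0.092 for REL. The cause was not tested. Quantile normalization moved the median difference over 11167 genes by -0.17 in T164A minus vector and by 0.14 in wild type minus T164A. It also moved the split of called genes from 57.7% to 47.2% higher in T164A minus vector. Over all genes, wild type against vector gave 4244 higher and 4939 lower, which became 2274 and 1547 with close libraries averaged and 2513 and 1578 with a minimum fold of 1.2. No paired analysis was possible because the groups share no replicate numbers. RELB, NFKBIE and BIRC3, the lowest members on the scale, had the largest standard errors (0.14 to 0.22).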
